A study of Danio rerio with 15 samples.

Results

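The 10 genes described here encode the digestive enzymes of the exocrine pancreas of the zebrafish. They are the trypsinogen genes prss1, prss59.1 and prss59.2, the chymotrypsinogen gene ctrb1, the elastase genes ela2, ela2l and ela3l, the carboxypeptidase genes cpa5 and cpb1, and the lipase gene cel.1. They were chosen by symbol, 10 of the 32520 genes in the deposited table, and all 10 were found and tested. RNA-seq had been done on whole bodies of wild-type AB zebrafish larvae at 120 hours post-fertilization, 3 libraries in each of 5 groups. The groups were untreated controls and larvae exposed to PFOS (perfluorooctanesulfonic acid, a persistent fluorinated surfactant) at 0.1, 1, 5 or 10 µM. The series is about developmental toxicity of PFOS, and the comparisons ask how the level of each enzyme transcript differed from control at each dose. Nothing in the labels tells whether replicate libraries were made from separate batches of larvae, so the p-values cover the spread of these libraries, part of which may be technical.

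Acinar cells of the pancreas make most of the protein that a larva secretes into its gut. They store proteases as inactive zymogens in granules, and enteropeptidase on the intestinal brush border cuts trypsinogen to trypsin, which then activates the other zymogens. Chymotrypsin and elastases cut proteins internally, carboxypeptidases remove amino acids from the carboxyl end, and carboxyl ester lipase, which bile salts activate, hydrolyses cholesterol and other lipid esters. In larvae these transcripts are produced almost wholly by acinar cells, under transcription factors such as Ptf1a and Nr5a2. In RNA from whole larvae, fewer acinar cells and less RNA per acinar cell cannot be told apart.

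The libraries held 11956657 to 19978125 estimated counts each, of which the 10 genes took 1.00% to 1.65% in 14 of the 15 libraries. PFOS 5 µM replicate 3 stood apart, with 0.389% (exact 95% binomial interval 0.386% to 0.393%, counting error only). The tests of the 10 genes that involve 5 µM are given with and without that library, and those of their transcripts against 5 µM only with it. The 10 µM libraries are named by the number in their column headers (2, 3 and 4), which differ from those in the sample titles. Levels are CPM, counts scaled to a fixed library total, with library sizes adjusted by the TMM method. Fold changes and adjusted p-values come from edgeR's quasi-likelihood test with Benjamini-Hochberg adjustment over all 21477 genes tested, with a threshold of 0.05.

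All 10 genes were among the most abundant transcripts of the larva. By mean CPM in controls prss59.2 ranked 32 and cel.1 ranked 479 of the 21477 genes tested. Per length, in the deposited RPKM (reads scaled to gene length and library total), the trypsinogens and chymotrypsinogen were highest in controls. The mean level was 4284 ± 609 RPKM (SD, n = 3) for prss59.2 and 3531 ± 457 for ctrb1. It was 3099 ± 532 RPKM for prss1 and 2714 ± 669 for prss59.1. These 4 genes stood in the same order in all 12 libraries whose RPKM were used (those below 10 µM), although the control ranges of neighbouring genes overlapped. The elastases and cpa5 followed as a second tier. Their control means were 1173 ± 370 RPKM for ela2, 1085 ± 296 for ela2l, 917 ± 60.3 for cpa5 and 849 ± 174 for ela3l, and their control ranges overlapped. Within each library whose RPKM were used, both ela2 and ela2l lay above ela3l. The third tier held cpb1, at 251 ± 43.6 RPKM, and cel.1, at 162 ± 52.2 RPKM. The control ranges were separate between prss59.1 and ela2 and between ela3l and cpb1, and the span from cel.1 to prss59.2 was 26.5-fold.

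Several of these genes lie beside close relatives, so that the counting may have split their reads. Coordinates are as deposited, and no source used here names their genome build. The trypsinogen genes prss59.1 (ENSDARG00000079274, chromosome 16, 26012569 to 26013851) and prss59.2 (ENSDARG00000073742, chromosome 16, 26017360 to 26018694) are tandem copies 3508 bp apart. The elastase genes ela2 (ENSDARG00000056744, chromosome 8, 21376290 to 21381734) and ela2l (ENSDARG00000056765, chromosome 8, 21366771 to 21372485) lie 3804 bp apart on opposite strands. The ela2l locus overlaps alas2 on the other strand, whose count reached 1008 at most, and whether strand was used in counting is not given. The lipase gene cel.1 (ENSDARG00000017490, chromosome 21) lies 7267 bp from cel.2, and cpa5 (ENSDARG00000021339, chromosome 25) lies 5907 bp from cpa1. The reference name table pairs the identifier of cpa5 with the name CPA1, so its subtype is uncertain.

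**Figure D1:**
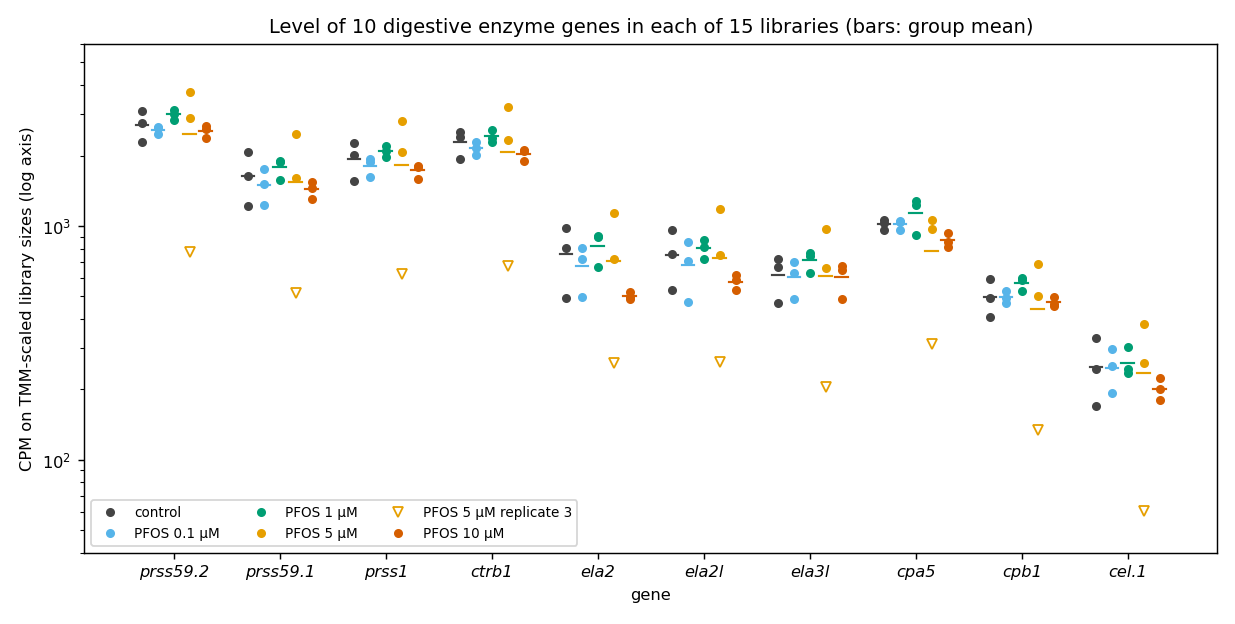
CPM on TMM-scaled library sizes (log axis) of each of the 10 genes in each of the 15 libraries, coloured by PFOS dose, with bars for group means. The open triangle is PFOS 5 µM replicate 3, the lowest of the 15 libraries for all 10 genes. It was the lowest for 13.4% of all genes with a mean of at least 1 CPM.

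At 10 µM PFOS none of the 10 enzyme genes passed the threshold against control, at a dose where 14.4% of all genes tested did (7.78% higher and 6.65% lower). All 10 fitted log2 fold changes were below 0, from -0.59 for ela2 to -0.04 for ela3l. Their median was -0.18, beside -0.0073 over all genes tested. The number at an unadjusted p below 0.05 was 0, beside 6331 of all 21477 genes tested, and DESeq2 called 0 of the 10 as well. The 10 genes summed to 12472 ± 2237 CPM (SD, n = 3) in controls and 10971 ± 738 CPM at 10 µM, a difference smaller than the spread between control libraries. Without control replicate 1, the control highest for 9 of the 10 genes, the median was -0.04 and 4 genes were above 0.

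The 3 trypsinogen genes encode the precursor of trypsin, the protease that activates the other zymogens. Control libraries held 1558, 2005 and 2254 CPM of prss1, and 10 µM libraries held 1595, 1786 and 1813 CPM. Every 10 µM value lay within the control range. For prss1 the log2 fold change was -0.16 with an SE of 0.33 and an edgeR adjusted p of 0.781. For prss59.1 it was -0.19 (SE 0.35, adjusted p = 0.755) and for prss59.2 it was -0.09 (SE 0.34, adjusted p = 0.890). Without control replicate 1 both prss59.1 and prss59.2 turned to just above 0 (0.0068 and 0.02).

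The chymotrypsinogen gene ctrb1 had 1926, 2402 and 2532 CPM in controls. At 10 µM it had 1890, 2082 and 2118 CPM, so the groups overlapped. Its log2 fold change was -0.17, with a 95% interval of -0.87 to 0.53 and an edgeR adjusted p of 0.774. The SEs and intervals at 10 µM take in the spread of PFOS 5 µM replicate 3, which is in neither group. Without that library the value of ctrb1 stayed at -0.17, and its SE went from 0.33 to 0.12. For prss1 the SE was then 0.13 and for prss59.2 0.11. None of the 10 genes passed in that fit, which called 16.7% of all genes. The library was left out because these genes were low in it, so the smaller SEs are no independent support.

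The elastase genes gave the lowest and the highest fold change of the 10. For ela2 the controls held 491, 801 and 978 CPM, while the 10 µM libraries held 486, 497 and 522 CPM. The 10 µM values lay close together at the level of the lowest control, control replicate 2. The log2 fold change was -0.59 (SE 0.36, 95% interval -1.36 to 0.17, edgeR adjusted p = 0.292). Its paralogue ela2l had 532, 761 and 960 CPM in controls. At 10 µM it had 533, 587 and 615 CPM, again within the control range, and the log2 fold change was -0.38 (SE 0.36, edgeR adjusted p = 0.518). The value for the third elastase, ela3l, was -0.04 (95% interval -0.78 to 0.70, edgeR adjusted p = 0.956), which turned to above 0 without control replicate 1 or 3 or without the 10 µM library numbered 3 (0.02 to 0.09).

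Whether ela2 passed depended on which libraries set the estimate of spread. Fitted with only the 3 control and 3 10 µM libraries, ela2 had the same log2 fold change of -0.59 and passed the threshold (edgeR adjusted p = 0.0438), the only one of the 10 to do so in a fit that called 19.4% of all genes. Without PFOS 5 µM replicate 3, a library that is in neither of the groups compared, the SE went from 0.36 to 0.23 and the adjusted p to 0.0883. Relative to the mean log2 CPM of the other 9 genes, ela2 stood at -0.46 ± 0.23 (SD, n = 3) in controls and -0.83 ± 0.09 at 10 µM. The lowest control was at -0.72 and the highest 10 µM library at -0.75, so the ranges were next to each other without overlap. On the same relative scale prss59.2 was at 1.64 ± 0.09 in controls and 1.77 ± 0.02 at 10 µM, with its highest control at 1.742 and its lowest 10 µM library at 1.754. The other 8 genes overlapped. Of all genes, set against the mean of the 10, 1.99% had every 10 µM library below every control, as ela2 did, and 18.0% had every one above, as prss59.2 did. The fitted log2 fold changes of the 10 genes at 10 µM were themselves below 0 (median -0.18), though none passed in the fit to all libraries. Such values move other genes up on this scale. Neither share is therefore a chance rate for ela2 or prss59.2.

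Of the carboxypeptidase genes, cpa5 was the single gene of the 10 whose 10 µM libraries all lay below all controls, a pattern that 18.3% of all genes tested had. Control libraries held 963, 1026 and 1061 CPM, and 10 µM libraries held 815, 856 and 935 CPM. The log2 fold change was -0.23 (SE 0.28, 95% interval -0.83 to 0.37, edgeR adjusted p = 0.636). In the fit without PFOS 5 µM replicate 3 it was also -0.23, with an SE of 0.11 and an edgeR adjusted p of 0.169. The basic carboxypeptidase gene cpb1, whose product removes lysine and arginine, had 497 ± 91.8 CPM in controls and 472 ± 22.6 CPM at 10 µM (log2 fold change -0.08, SE 0.35, adjusted p = 0.910). The lipase gene cel.1 had 249 ± 81.3 CPM and 201 ± 21.1 CPM (log2 fold change -0.31, SE 0.41, edgeR adjusted p = 0.662). Without control replicate 1 the value of cpb1 was 0.07 and that of cel.1 was -0.04.

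**Figure D2:**
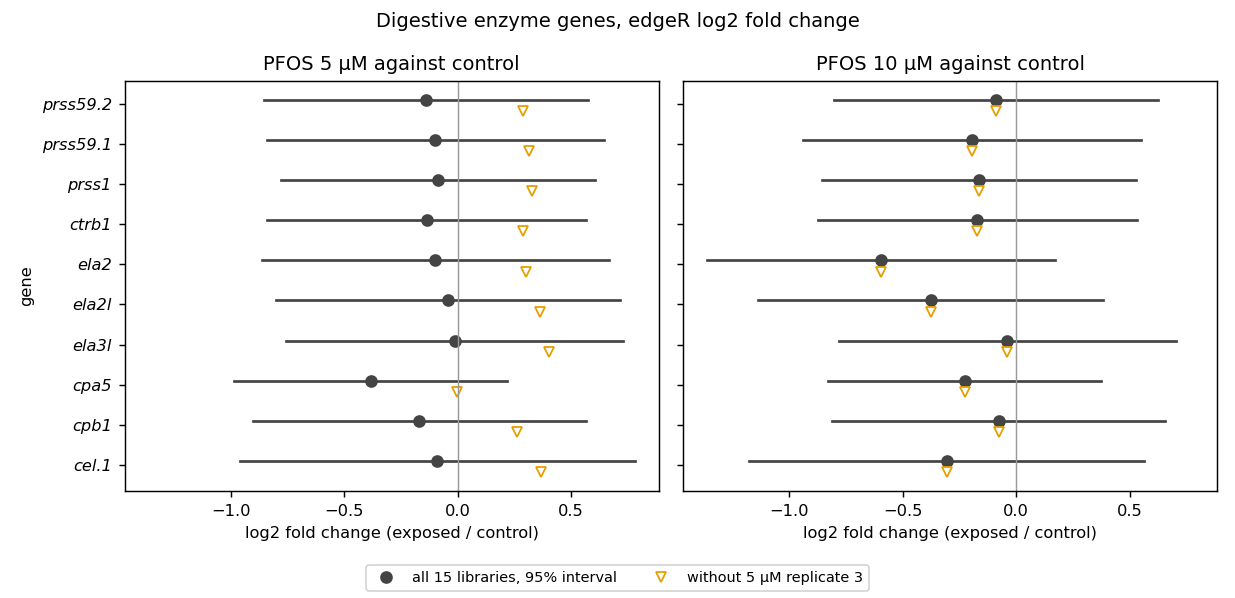
Log2 fold change of each gene against control at 5 µM (left) and 10 µM (right), from edgeR. Filled points with 95% intervals are the fit to all 15 libraries and open triangles the fit without PFOS 5 µM replicate 3. At 5 µM the fit without that library moved 9 of the 10 genes from below to above 0, and at 10 µM the values stayed where they were. The intervals of that fit are not drawn, and at 10 µM its SEs were smaller for each gene.

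At 5 µM the mean of the 10 genes hid a wide gap between libraries. The summed level was 17665 CPM in replicate 1, 12761 in replicate 2 and 3813 in replicate 3, beside 10083 to 14518 CPM in controls. For prss1 the 3 values were 2797, 2064 and 620 CPM. For ctrb1 they were 3228, 2340 and 673 CPM. Replicate 1 was the highest of all 15 libraries in summed level and replicate 3 the lowest. Every one of the 10 genes was 3.26-fold (cpa5) to 5.31-fold (cel.1) lower in replicate 3 than in the mean of the other 5 µM libraries. No gene passed the threshold against control, neither among the 10 nor among all genes tested (0%). Over all genes 837 were at an unadjusted p below 0.05 (none of the 10), and DESeq2 called 12 (none of the 10).

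The fitted log2 fold changes at 5 µM were all below 0, from -0.38 for cpa5 to -0.01 for ela3l, with a median of -0.10. Without replicate 3 they ran from -0.0029 for cpa5 to 0.40 for ela3l, with a median of 0.31 and 9 of 10 above 0. In that fit again none of the 10 passed, nor did any of all genes tested (0%, smallest edgeR adjusted p of the 10 = 0.979), while prss1, prss59.2 and ctrb1 were at an unadjusted p below 0.05, all higher. Between 10 µM and 5 µM the median log2 fold change was -0.06 and none of the 10 passed, where 15.4% of all genes tested did. In this fit to all libraries the number at an unadjusted p below 0.05 was 0, beside 6540 of all 21477 genes tested, and DESeq2 called 0 of the 10. Without PFOS 5 µM replicate 3 all 10 were lower at 10 µM than at 5 µM, from -0.90 for ela2 to -0.22 for cpa5, and ela2 passed (edgeR adjusted p = 0.0437), in a fit that called 7.25% of all genes. In it 9 of the 10 genes, all but cpa5, were at an unadjusted p below 0.05. The number over all genes is not given here for the fits without this library. The library was left out because these same 10 genes were low in it. Leaving it out therefore raises their 5 µM mean and narrows their spread by selection. The p-values without it, that of ela2 among them, are thus no independent support, against control or between 10 µM and 5 µM. Most of the 10 also vary together, so neither prss1, prss59.2 and ctrb1 at 5 µM nor the 9 are separate results. The next smallest adjusted p-values between 10 µM and 5 µM without that library were those of ctrb1 (-0.46, adjusted p = 0.0506) and prss1 (-0.49, adjusted p = 0.0549), with 2 libraries at 5 µM.

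Other secretory products of the acinar cell were low in the same library. The list of these holds further trypsin-like proteases, elastases, carboxypeptidases, amylase, phospholipase and the acinar disulfide isomerase pdia2. All 20 of its genes with a mean of at least 1 CPM were more than 2-fold lower in PFOS 5 µM replicate 3 than in the mean of the other 5 µM libraries. Their median log2 difference was -2.0, beside -1.98 for the 10 enzyme genes on the same scale, log2(CPM + 0.5). Over all 20015 genes with that mean the median was -0.0011 and 2.39% were more than 2-fold lower. The pancreatic amylase gene amy2a had 90.5 CPM in replicate 3 and 461 CPM in the mean of the others, and pdia2 had 34.3 and 123 CPM.

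The medians of the other lists did not show a drop of that size in the library. The transcription factor genes of acinar cells had a median log2 difference of -0.12, with 0 of 8 more than 2-fold lower. Genes of the secretory pathway of the endoplasmic reticulum had a median of -0.20 (0 of 30). Islet markers had a median of -0.17, with 3 of 14 more than 2-fold lower, and these were the hormone genes ins, sst1.2 and sst2. Insulin transcripts were at 7.35 CPM in replicate 3 and 19.4 CPM in the mean of the others. Duct and centroacinar markers had a median of 0.34, and enterocyte markers had a median of 0.26, both with none more than 2-fold lower. Hepatocyte markers had a median of -0.45 with 1 of 19 more than 2-fold lower, and their summed level was 5049 CPM, below the 5755 to 7493 CPM of the other 4 groups. Genes for the hormonal and neural control of secretion had a median of -0.16 (0 of 10). Replicate 3 was the lowest of all 15 libraries for 33.3% of the endoplasmic reticulum genes and 42.1% of hepatocyte markers. It was so for 28.6% of islet markers and 30.0% of the genes for control of secretion. The share was 12.5% of the acinar transcription factors, 3.45% of enterocyte markers and 0% of duct markers, beside 13.4% of all genes with that mean. The share of counts from mitochondrial genes was also highest in this library, at 5.38% against 3.85% to 4.63% in the other 14. No gene of any of these lists was at 0 in all libraries. The part of any of these in the low enzyme level was not tested.

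**Figure D3:**
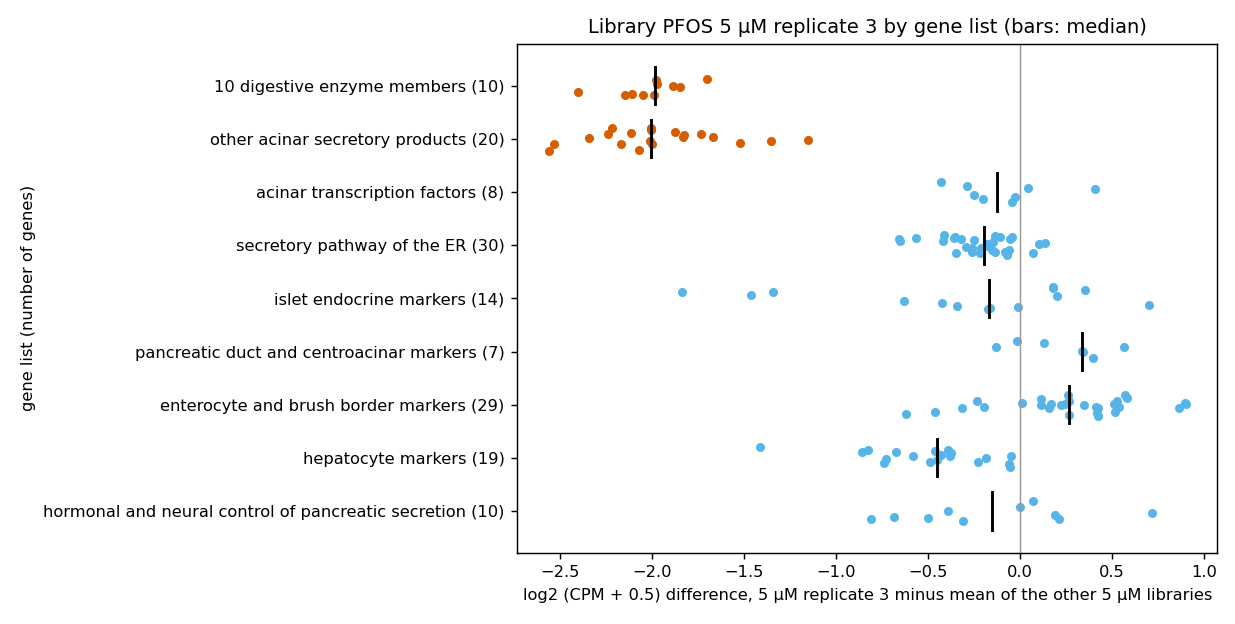
Difference in log2(CPM + 0.5) between PFOS 5 µM replicate 3 and the mean of the other 5 µM libraries, 1 point a gene, by gene list, with bars at the median. The 10 enzyme genes (median -1.98) and the other acinar secretory products (median -2.0) have medians below those of the other lists, while single islet and hepatocyte markers lie within the range of the acinar secretory products.

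At the lower doses none of the 10 genes passed the threshold. At 0.1 µM the log2 fold changes ran from -0.16 (ela2) to 0.0012 (cpa5), with a median of -0.08 and a smallest edgeR adjusted p of 1.00. At 1 µM all 10 were above 0, from 0.06 (cel.1) to 0.20 (cpb1), with a median of 0.12. The summed level was 11748 ± 1105 CPM at 0.1 µM and 13590 ± 867 CPM at 1 µM (SD, n = 3), both within 1 control SD of the control mean. None of all 21477 genes tested passed at either dose (0% at both), while 243 and 422 had an unadjusted p below 0.05. None of those were among the 10, and DESeq2 called 0 at both. Without control replicate 1 the median at 0.1 µM was 0.07, and over the alternatives the median at 1 µM ran from -0.03 to 0.32.

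Tests over the whole dose range, fitted to all libraries, also left the 10 genes below the threshold, with none at an unadjusted p below 0.05 and none called by DESeq2. Over all genes 4837 were at an unadjusted p below 0.05 in the F test and 4913 in the slope. The F test over the 4 doses called none of the 10, beside 7.90% of all genes, and its smallest adjusted p was that of cpa5 (0.661). The slope over dose rank called none of the 10, beside 3.59% of all genes. The steepest slope was that of ela2, -0.11 log2 units per dose step (SE 0.08, edgeR adjusted p = 0.459). Without PFOS 5 µM replicate 3 neither test called any of the 10, beside 8.99% of all genes in the F test (smallest edgeR adjusted p = 0.141, ela2) and 11.6% in the slope (0.321, cpa5). The number of the 10 at an unadjusted p below 0.05 was then 5 in the F test and 0 in the slope, and the number over all genes is not given here.

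From library to library most of the 10 genes varied together, and cpa5 was the exception. In the libraries numbered 2 of the control, 0.1 µM and 1 µM groups, 9 of the 10 genes were below the mean of the other libraries of the group, and the one above it each time was cpa5. The median shortfall there was -0.50, -0.32 and -0.20 on the log2 scale. The correlation of a gene's log2 CPM with the mean of the other 9 over the 15 libraries is given as a description, since all genes share the libraries. Pearson's r was 0.913 to 0.996 for 9 genes and 0.859 for cpa5. Without the 2 libraries farthest from the median (PFOS 5 µM replicates 1 and 3) it was 0.793 to 0.977 for the 9, but 0.272 for cpa5. Without PFOS 5 µM replicate 3 alone it was 0.868 to 0.983 for the 9 and 0.289 for cpa5. The likeness of cpa5 to the others thus rests mainly on PFOS 5 µM replicate 3. Spearman's rho for cpa5 was 0.389 over all 15. In controls cpa5 varied by 49.4 CPM (SD) around 1017, where ela2 varied by 247 CPM around 757.

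The genes outside the 10 whose pattern was most like their mean over the 15 libraries, among 20005 genes with a mean of at least 1 CPM, were cela1.5, c6ast3, cela1.6, amy2a and zgc:112160. Pearson's r ran from 0.972 for zgc:112160 to 0.979 for cela1.5, here the gene ENSDARG00000043168 since a second gene carries the same symbol. After subtraction of group means the 5 most alike were ctrl, cela1.6, c6ast4, c6ast3 and cela1.5 (r 0.978 to 0.988). The genes cela1.5 and cela1.6 encode elastases, ctrl a chymotrypsin-like protease and c6ast3 and c6ast4 astacin-like metalloproteases. Without the 2 farthest libraries the values for the first 5 genes were 0.836 (cela1.6) to 0.946 (amy2a).

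Below the level of the gene, a minor transcript of ctrb1 rose at 10 µM. The deposited transcript table splits the counts of the 10 genes over 17 annotated transcripts, of which 16 were tested with the same model over 32275 transcripts; this test was added after the data had been seen. The transcript ctrb1-202 (ENSDART00000134525, chromosome 7, 35077758 to 35078438, + strand) spans 681 bp inside the gene and is annotated as a retained intron, a transcript that keeps an intron and codes for no protein. It had 64, 100 and 173 estimated counts in the control libraries. In the 10 µM libraries numbered 2, 3 and 4 it had 1002, 442 and 884. Every 10 µM value lay above all 12 libraries of the other groups, which held 28 to 180 counts. Mean levels were 7.96 ± 3.46 CPM (SD, n = 3) for control libraries and 60.9 ± 23.8 CPM for 10 µM libraries. The log2 fold change, 2.93 with an SE of 0.54, passed the threshold (edgeR adjusted p = 0.0118).

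This was 1 of 16 tested transcripts of the 10 genes, beside 3.11% of all transcripts called higher and 3.13% called lower at 10 µM. Of the 877 retained introns tested, 1.94% were called higher and 2.05% lower. Against 5 µM the log2 fold change of ctrb1-202 was 3.16 (SE 0.55, edgeR adjusted p = 0.00915), in a comparison with 3.21% of all transcripts called higher. As a share of all ctrb1 counts, ctrb1-202 took 0.365% ± 0.210 (SD, n = 3) in controls and 2.96% ± 1.04 at 10 µM. An exact two-sided permutation test of that share gave p = 0.1, the smallest that 3 against 3 libraries allow. The main protein-coding transcript ctrb1-201 had 2273 ± 320 CPM in controls and 1962 ± 103 CPM at 10 µM (log2 fold change -0.21, edgeR adjusted p = 0.797). The call for ctrb1-202 was lost without control replicate 3 (2.66, adjusted p = 0.0556) and without the 10 µM library numbered 2 (2.67, adjusted p = 0.0544).

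A minor transcript of cpb1 was also seen mainly at 10 µM. The transcript cpb1-201 (ENSDART00000066833, chromosome 24, 4756162 to 4765684, - strand) is annotated as a target of nonsense-mediated decay, the pathway that degrades mRNAs with premature stop codons. It was at 0 counts in 9 of the 12 libraries of the other groups and at 20 to 28 in the remaining 3. The 10 µM libraries numbered 2, 3 and 4 held 338, 67 and 328 counts, which were 6.01%, 1.13% and 5.04% of cpb1 counts. All 10 µM values were above those of the other 12 libraries, and the library numbered 3 was the lowest of the 10 µM group for both transcripts. Against control the difference did not pass (log2 fold change 5.28, SE 1.66, edgeR adjusted p = 0.0866), except in the fit with only those 2 groups (adjusted p = 0.0472, where 2.84% of all transcripts were called higher). Against 5 µM, where all 3 libraries were at 0, it did (edgeR adjusted p = 0.0381). The 10 µM mean of 19.2 CPM was 87.2 times an assumed floor of 3 counts per library at 5 µM. It was 39.3 times the control mean of 0.487 CPM, which came from control replicate 3 alone. Of 225 transcripts of this class, 0.889% were called higher and 1.78% lower against control. Both transcripts overlap others of their gene, and no source used here says how reads were assigned between them.

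**Figure D4:**
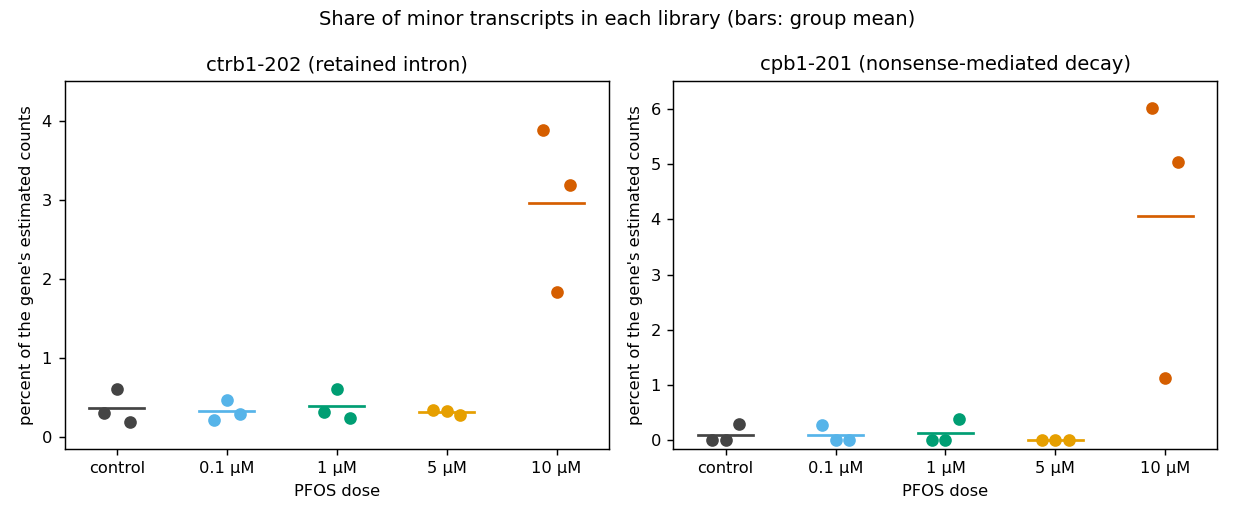
Share of the gene's estimated counts assigned to ctrb1-202 (left) and cpb1-201 (right), 1 point a library, by PFOS dose, with bars at the group mean. The 3 libraries at 10 µM lie between 1.83% and 3.88% for ctrb1-202 and between 1.13% and 6.01% for cpb1-201, all above the other 12 libraries.

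Genes around the enzymes in the secretory and digestive system were counted at 10 µM from lists, each count to be read beside the 7.78% of all genes called higher and 6.65% called lower. Of 21 other acinar secretory products tested 0 were higher and 1 was lower, with a median log2 fold change of -0.17 that lay near the -0.18 of the 10 enzyme genes. The 1 that fell was the elastase gene cela1.5 with the identifier ENSDARG00000077058, from 16.3 ± 7.03 CPM to 4.86 ± 1.24 CPM (log2 fold change -1.74, SE 0.49, edgeR adjusted p = 0.0288). Its call was lost without control replicate 1 or 3, or without any 1 of the 10 µM libraries (adjusted p 0.0594 to 0.118). Next by p were cpa1 (-0.98, adjusted p = 0.153), cel.2 (-0.74, adjusted p = 0.211) and endou (-0.57, adjusted p = 0.218). All had every 10 µM library below every control, as 18.3% of all genes did. Without PFOS 5 µM replicate 3 those values were -0.98, -0.74 and -0.57 and passed, at edgeR adjusted p of 0.0498, 0.0296 and 0.0377. That fit called 16.7% of all genes. The library was left out because the 10 enzyme genes were low in it, and cpa1, cel.2 and endou were low there too. Leaving it out kept their fold changes and narrows their spread by selection. The p-values without it are thus no independent support for these genes either. With only the 2 groups compared, a fit that also lacks this library, the fold changes were -0.97, -0.74 and -0.57. They passed too (edgeR adjusted p 0.0111, 0.0191 and 0.0354), in a fit that called 19.4% of all genes. The gene cpa1 also passed without PFOS 5 µM replicate 1 (adjusted p = 0.0498).

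None of the 10 transcription factors of acinar development passed at 10 µM (median 0.01). Of them 1 was at an unadjusted p below 0.05, beside 6331 of all 21477 genes tested. The lowest p was that of prox1a (-0.32, edgeR adjusted p = 0.0601), which passed without any 1 of PFOS 5 µM replicate 2 (-0.32, 0.0354), PFOS 5 µM replicate 3 (-0.32, 0.0459) or the 10 µM library numbered 3 (-0.41, 0.0296). It also passed with only the 2 groups compared (-0.32, edgeR adjusted p = 0.0408). Of 30 genes of the secretory pathway of the endoplasmic reticulum 5 were higher and 0 lower, with a median of 0.23. Its chaperone gene hspa5 (BiP) rose from 218 ± 38.5 to 321 ± 18.7 CPM (0.56, SE 0.16, edgeR adjusted p = 0.0269). The SNARE gene vamp8, which takes part in granule exocytosis, rose from 17.8 ± 4.05 to 33.1 ± 4.84 CPM (0.90, SE 0.23, edgeR adjusted p = 0.0185). The call for hspa5 was lost without control replicate 3 or any 1 of the 10 µM libraries (adjusted p 0.0544 to 0.128), and the call for vamp8 without control replicate 2 or 3 or the 10 µM libraries numbered 2 or 4 (0.0571 to 0.0875). Secretory cells of every organ express these genes, so they are not particular to the pancreas.

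On the intestinal side, the gene for enteropeptidase, tmprss15, fell at 10 µM. Its level was 7.74 ± 1.27 CPM in control and 4.32 ± 0.78 CPM in 10 µM libraries (log2 fold change -0.84, SE 0.20, edgeR adjusted p = 0.0127). All 10 µM libraries lay below all controls, a pattern that 18.3% of all genes tested had. The call was lost without control replicate 3 (-0.70, adjusted p = 0.0640) and without the 10 µM library numbered 2 (-0.71, adjusted p = 0.0725). Of the 29 enterocyte genes tested 3 were higher and 6 lower, with a median of -0.19. The brush border peptidase gene dpp4 fell (-0.55, SE 0.12, edgeR adjusted p = 0.00756), while the retinol-binding protein gene rbp2b (0.66, adjusted p = 0.00904) and the apolipoprotein gene apoa4b.2 (0.69, adjusted p = 0.00832, ENSDARG00000020866) rose, and these 3 calls passed in all 21 alternatives. The summed level of the list was 3114 to 3641 CPM in controls and 2984 to 3215 CPM at 10 µM.

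In the remaining lists, 1 of 14 islet markers was lower (sst2, -1.21, edgeR adjusted p = 0.0449) and 0 were higher, with a median of -0.19. Of 7 duct and centroacinar markers 1 was higher (cftr, the chloride and bicarbonate channel of duct cells, 0.53, adjusted p = 0.0430) and 0 were lower, with a median of -0.13. Each of these calls passed in 12 of 21 alternatives, and both were lost with DESeq2 (adjusted p = 0.0561 for sst2 and 0.0545 for cftr). That of sst2 was also lost without control replicate 2 or 3 or any 1 of the 10 µM libraries (0.0901 to 0.182), and without 0.1 µM replicate 3, 1 µM replicate 3 or 5 µM replicate 2 (0.0528 to 0.0536). The islet transcription factor gene pax6b (-0.37) was called lower in 7 alternatives, DESeq2 among them (adjusted p 0.0239 to 0.0474), and the somatostatin gene sst1.1 (0.55) higher in 3 (0.0386 to 0.0463). The call for cftr was lost without any 1 of the control or 10 µM libraries (0.0541 to 0.155), without 0.1 µM replicate 2 (0.0538) and with no filter on low counts (0.0567). Of the other duct markers the annexin gene anxa4 (-0.26) was called lower in 4 alternatives, DESeq2 among them (0.0283 to 0.0487), and the transcription factor gene sox9b (0.35) higher in 2 (0.0227 and 0.0446). Which genes of this list were called thus differed with the tool, while cftr, anxa4 and sox9b kept the sign of their fold change in every alternative. Among 19 hepatocyte markers 5 were higher and 1 lower, with a median of 0.22, and the summed level was 6062 to 6895 CPM in controls and 7033 to 7493 CPM at 10 µM. None of 10 genes for the hormonal and neural control of secretion passed (median -0.03), among them the cholecystokinin gene ccka at -0.21 (edgeR adjusted p = 0.420). Of these 10 genes 0 were at an unadjusted p below 0.05, beside 6331 of all 21477 genes tested.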

How the data were processed

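Estimated counts per gene and per transcript were deposited by the authors as whole numbers, per the file headers, and gene values equalled the sums of their transcripts in 96.8% of cases and within 2 counts otherwise. The authors also deposited RPKM values, and for 12 libraries, those below 10 µM, these served to compare levels between genes. RNA was extracted with RNAzol and libraries were quantified with a KAPA kit, per the labels' protocols. No source used here names the aligner, the counting tool, the genome build or the use of strand. Left unused were 18 columns of sample values in the gene table and 30 in the transcript table.

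Of 32520 genes (5419 at 0 in every library), 21477 passed filterByExpr and were fitted with edgeR 4.0.16 (R 4.3.3; TMM, glmQLFit, glmQLFTest, two-sided) as 5 group means over 15 libraries. SE is the absolute log2 fold change divided by the square root of F. The fit was tested on simulated counts. Alternatives were DESeq2 1.42.0 or its size factors, TMM without acinar genes, other filters, only the groups compared, a replicate block, RPKM for CPM, and leaving out each library. The 10 genes and all gene lists were chosen with earlier results of these data known. Named genes are the 10, up to 4 of smallest p per list (some given as counts only), and the 5 most alike.

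Replicate numbers pair the control, 0.1 and 1 µM libraries, since the deviations of same-numbered libraries from their group means correlated over genes at r = 0.19 to 0.45, above 0.1 in every pair. Of the 3 same-numbered pairs of 5 µM with control 1 did (number 1, r = 0.35). Across numbers, 5 µM replicate 3 correlated with replicate 2 of the control, 0.1 and 1 µM groups (r = 0.22, 0.23 and 0.17). Likewise 5 µM replicate 2 correlated with replicate 3 of those groups (r = 0.28, 0.31 and 0.11). The numbers 2 and 3 therefore do not pair the 5 µM libraries as they do those of the lower groups. The 10 µM columns carry other numbers than the titles.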

Additional observations from a re-analysis of the deposited data

How the results depend on the processing

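None of the 10 enzyme genes passed against control at 0.1, 1 or 5 µM, in the F test or in the slope, under any alternative tried. At 10 µM the count was 1 (ela2) with only the 2 groups compared and 0 otherwise. Against 5 µM, leaving out single libraries gave counts of 0 to 1, and ela2 ranged from -0.90 (without 5 µM replicate 3) to 0.032 (without 5 µM replicate 1). Leaving out single libraries moved log2 fold changes at 10 µM from -0.20 to 0.094 for ela3l, from -0.20 to 0.066 for cpb1, from -0.20 to 0.020 for prss59.2 and from -0.37 to 0.0068 for prss59.1. Transcripts past the threshold at 10 µM numbered 2 with only the 2 groups compared (chosen, like all alternatives for transcripts, after seeing the data) and 0 to 1 when single libraries were left out. Deposited RPKM in place of CPM moved each gene's ratio of 5 µM to control by less than 1 control SD.

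With the replicate number as a block, over the 12 libraries below 10 µM, 0 of the 10 genes passed the threshold at 0.1, 1 and 5 µM. The 5 µM libraries numbered 2 and 3 did not match the controls of the same number (r = -0.14 and -0.0017). The block fit therefore does not test the pairing at 5 µM. Those libraries also enter its estimate of spread, so it is not a clean paired test at 0.1 or 1 µM either. No block fit without them was run, and the main tests took no account of the pairing. The block was not fitted at 10 µM, where the numbers in the columns differ from those in the titles. In the fit to all 15 libraries the widest 95% interval of the 10 genes at 10 µM was that of cel.1, -1.18 to 0.56.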
